A study of Mus musculus with 30 samples.

Results

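The genes described here encode the proteins that start and lengthen polypeptide chains on the cytosolic ribosome, the eukaryotic initiation factors (symbols Eif1 to Eif6) and elongation factors (Eef1 and Eef2). Members were taken by name alone. They are the array probes annotated to a single symbol of this kind that had values on at least 24 of 30 arrays. This gave 65 probes for 57 symbols, of 16124 probes (11980 symbols) that passed the same filter and 22800 on the array. Of 66 probes with such a name, 1 was left out by the filter, the second probe of Eef1b2. On all 30 arrays 51 of the members had a value. The name also takes in kinases, methyltransferases and 2 pseudogenes of these factors, which are given as separate groups.

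The RNA came from mammary carcinomas of Myc-transgenic mice. Myc is a transcription factor known for driving cell growth. Each of 15 extracts, coded by a number and a letter (540-B to 597-B), was hybridised on 2 two-channel arrays with the channels exchanged, always against 1 common reference RNA. All extracts share the transgene, and the labels give neither its promoter, the strain, age or sex of the mice, nor what the number, the letter or the reference stand for. Per the labels 12 extracts belong to work on epithelial to mesenchymal transition, 550-A and 561-B to work on tumour progression, and 595-A carries one description on each of its arrays. Nothing says that each extract is from its own animal, so the spread behind every p-value is that between extracts and can be technical in part.

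Values are log2 ratios of an extract to the reference, averaged over its 2 arrays. Numerator and denominator of the ratio are not named in the labels, so direction is given relative to the Myc probe, which stood at 3.16 ± 0.11 (SE, n = 15 extracts) and on one side in 15 of 15 extracts. "Myc side" means positive values and is likely the side on which the extract exceeded the reference, on the basis that the mice carry a Myc transgene, which is not proof. Arrays held from 13434 to 21991 values. Paired arrays of an extract, turned to one direction, correlated at r from -0.052 to 0.426 over the probes of the fit (above 0 in 12 of 15 extracts), while arrays of different extracts in the same orientation had a median r of 0.534 with the extract in channel 1 and 0.532 in channel 2. Arrays thus resembled others of their own orientation more than the second array of the same RNA, and array medians ran from -0.941 to 1.135. Results are given as deposited. Values after subtraction of array medians ("centred") or in a single orientation stand beside many, but not all, of the results whose side or call they change.

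Translation of a capped mRNA begins when the cap-binding complex eIF4F recruits the small ribosomal subunit, which carries eIF3 and the initiator tRNA on eIF2. eIF2 is a GTPase that eIF2B reloads, and its phosphorylation by the eIF2 alpha kinases lowers initiation throughout the cell. After the subunits join, eEF1A brings aminoacyl-tRNA, the eEF1B subunits reload eEF1A, eEF2 moves the ribosome along, and eIF5A helps at sequences where peptide bonds form slowly. Several of these genes, Eif4e, Eif4a1 and Eif5a among them, are textbook targets of Myc.

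Against the reference 37 of 65 members passed limma's test (adjusted p under 0.05), or 56.9%, where 42.7% of all probes did. Toward Myc lay 34 members (52.3%, against 27.1% of all probes) and on the opposite side 3 (4.62%, against 15.6%), while 28 missed the threshold. This lean did not hold on centred arrays with the extract in channel 2. There 8 members passed on the Myc side (all probes 24.8%) and 17 on the opposite side (all probes 29.2%). The median member stood at 0.32 and the median of all probes at 0.12. After centring 35 members passed (53.8%, against 42.9% of all probes), 29 on the Myc side (44.6%, against 22.9%) and 6 opposite, with medians of 0.22 and 0.02. On the Myc side in every extract were 12 members (18.5%, against 7.00% of all probes), and on the opposite side in every extract 0 (against 3.95%). In RNA of whole tissue, more cells of a type and more RNA per cell cannot be told apart.

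**Figure D1:**
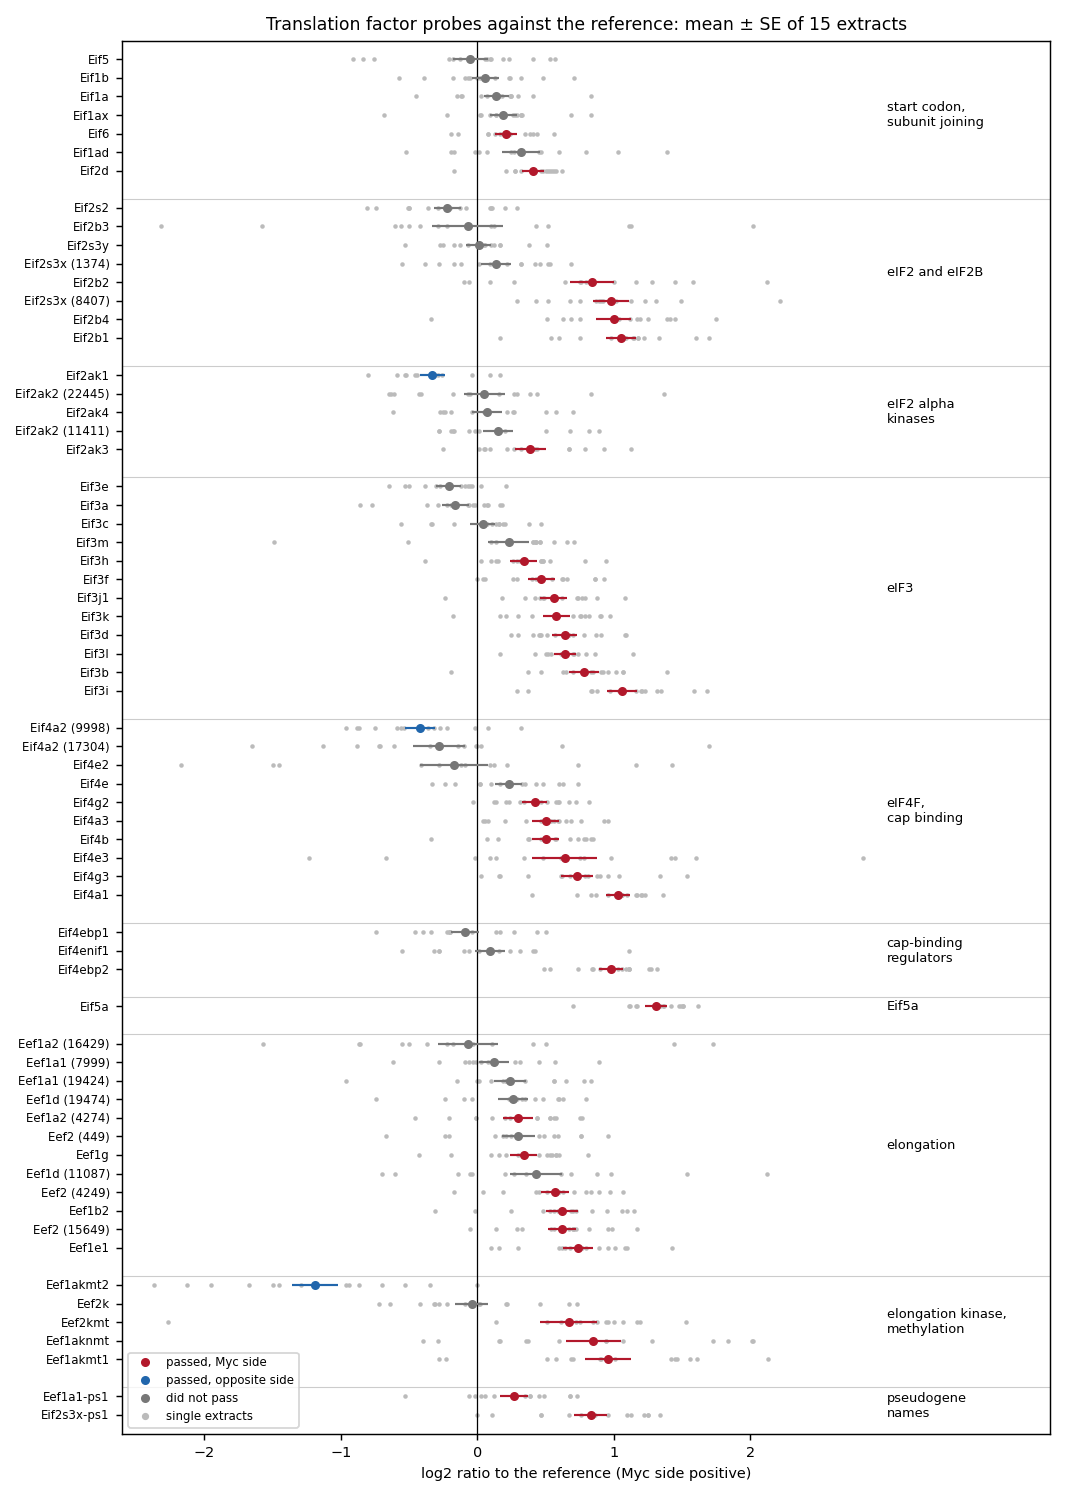
Mean log2 ratio to the reference of each of the 65 translation factor probes (large points, bars ± SE over extracts) with single extracts as small grey points, ordered by role; probe numbers tell apart probes of one gene. Probes past the threshold on the Myc side are red (34), on the opposite side blue (3), and the other 28 dark grey. The lean to the Myc side did not hold on centred arrays with the extract in channel 2 (8 against 17, all probes 24.8% against 29.2%).

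Where these genes stood among all probes differed with the channel of the extract. As deposited, the median member stood at 0.40 on arrays with the extract in channel 1 and at 0.36 with it in channel 2. The median of all probes was -0.15 and 0.41. Centring separated the orientations, since the array medians themselves differed: the median member then stood at 0.66 in channel 1 and at -0.08 in channel 2, where the median of all probes was 0.11 and -0.05. With centred channel 1 arrays alone 44 members passed on the Myc side (all probes 32.6%) and 3 on the opposite side (all probes 25.3%). With centred channel 2 arrays alone it was 8 (all probes 24.8%) and 17 (all probes 29.2%). The centred value was higher in channel 1 for 59 of 65 members and for 61.3% of all probes. Of the 34 members called on the Myc side 32 were positive in both orientations as deposited and 23 after centring, and the 3 on the opposite side were negative in both either way. Of the 28 members that did not pass, 17 had opposite signs in the 2 orientations as deposited and 27 after centring. No side is drawn from the means of these 28. Signs by orientation were not counted over all probes, so the sign counts are a description. The part of the channel in each gene's mean was not tested beyond these values.

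**Figure D2:**
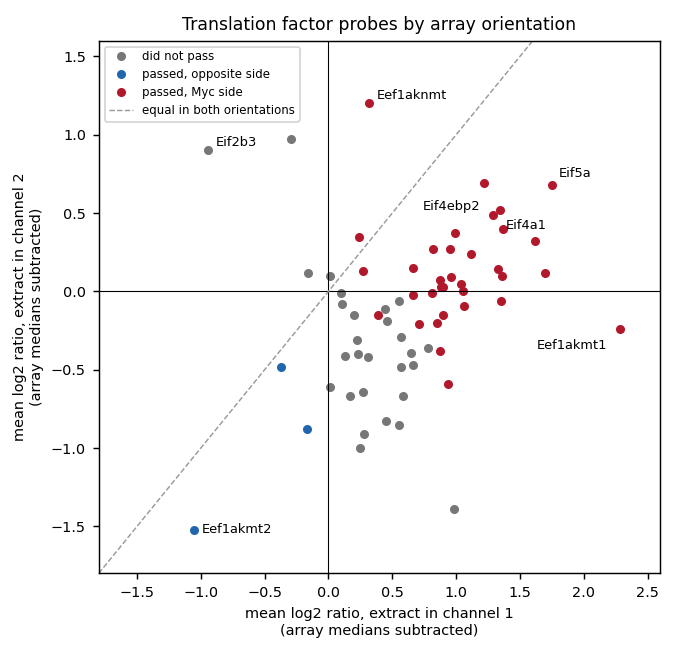
Mean centred log2 ratio of each translation factor probe on arrays with the extract in channel 1 (horizontal) against arrays with it in channel 2 (vertical), with the line of equal values dashed and colours by the call over both orientations. Most points lie below the line (59 of 65 higher in channel 1), and 23 of the 34 red points are positive on both axes.

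Eif5a, the factor that carries the modified amino acid hypusine, lay farthest on the Myc side of the members. Its probe ranged from 0.70 in 550-A over a median of 1.36 to 1.62 in 561-B. No extract came near 0. The mean was 1.31 ± 0.08 (SE, n = 15 extracts), a 2.48-fold difference with a limma adjusted p of 2.22e-09, and both centred orientations kept the side (1.75 and 0.68). Dohh, the enzyme that completes hypusine on eIF5A, was the measured gene of that modification and stood at 1.05 ± 0.12 (0.47 to 1.99, 15 of 15 extracts on the Myc side).

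To show what lies upstream of the members farthest on each side and of a pair that parted, promoter sequence was read from RefSeq on assembly GRCm38.p6. The windows hold 250 bases before and 50 after an annotated start, and 43 of the 57 genes had one. The sequences below are the 250 bases before the start of Eif5a, farthest on the Myc side; of Eef1akmt2, a methyltransferase farthest on the opposite side; of Eif4a1 and Eif4a2, a pair of near-identical helicases that lay on different sides; and of Eef2, the translocase. They are written 5′ to 3′ on the strand of the gene, with the E-box CACGTG, the letters bound by Myc with its partner Max, in capitals. Eif5a has 6 annotated windows, of which 3 hold the E-box and 3 do not, and is shown at the one where it lies nearest the start, at chr11:69921387-69921636 (minus strand). Eef1akmt2 lies at chr7:132852648-132852897 (minus strand). Eif4a1 lies at chr11:69672424-69672673 (minus strand), Eif4a2 at chr16:23107218-23107467 (plus strand) and Eef2 at chr10:81176381-81176630 (plus strand).
Eif5a: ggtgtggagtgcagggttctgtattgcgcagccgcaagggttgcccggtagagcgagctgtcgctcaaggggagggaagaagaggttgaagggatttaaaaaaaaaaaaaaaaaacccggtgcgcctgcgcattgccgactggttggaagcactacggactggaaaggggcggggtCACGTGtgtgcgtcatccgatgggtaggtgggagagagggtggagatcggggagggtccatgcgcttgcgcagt
Eef1akmt2: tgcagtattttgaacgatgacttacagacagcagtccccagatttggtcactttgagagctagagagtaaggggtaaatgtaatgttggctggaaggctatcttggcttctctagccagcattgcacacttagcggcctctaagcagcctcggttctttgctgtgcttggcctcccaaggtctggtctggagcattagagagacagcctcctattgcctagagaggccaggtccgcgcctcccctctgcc
Eif4a1: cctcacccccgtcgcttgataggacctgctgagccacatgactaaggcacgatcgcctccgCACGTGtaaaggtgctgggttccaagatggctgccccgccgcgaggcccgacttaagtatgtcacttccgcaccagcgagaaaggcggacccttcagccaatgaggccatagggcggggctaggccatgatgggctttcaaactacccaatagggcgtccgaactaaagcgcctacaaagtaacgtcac
Eif4a2: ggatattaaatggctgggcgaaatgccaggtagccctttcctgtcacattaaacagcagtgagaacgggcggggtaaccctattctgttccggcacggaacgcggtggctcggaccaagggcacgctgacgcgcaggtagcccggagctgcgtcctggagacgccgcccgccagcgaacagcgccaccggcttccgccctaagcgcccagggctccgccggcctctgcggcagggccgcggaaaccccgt
Eef2: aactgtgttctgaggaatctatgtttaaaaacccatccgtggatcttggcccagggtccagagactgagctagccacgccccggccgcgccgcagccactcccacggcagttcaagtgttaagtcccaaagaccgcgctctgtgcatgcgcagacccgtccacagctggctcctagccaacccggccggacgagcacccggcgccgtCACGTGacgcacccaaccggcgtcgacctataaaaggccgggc

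The first base of the E-box lies at -74 from this start in Eif5a, at -189 in Eif4a1 and at -43 in Eef2, and the letters do not occur in the windows of Eef1akmt2 and Eif4a2. CACGTG reads the same on both strands, so 1 search covers both. It was found in the windows of 10 of 43 member genes (23.3%), where 10.9% of 9437 measured genes and 8.09% of 27025 annotated genes had it. Counted per window the shares were 20.7%, 9.19% and 7.15%. The other genes with it were Eif3a, Eif3f, Eif3k, Eif4e, Eif1b, Eef2k and Eef1aknmt, of which Eif4e holds it at -228 and at -64. The letters did not sort members by side: 6 of 24 genes with a probe called on the Myc side, 0 of 3 on the opposite side and 4 of 16 that did not pass held them. Member windows were richer in G and C than those of measured genes (median 61.8% against 59%). A match of letters is a description and shows no binding.

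Of the eIF4F complex and its relatives, which bind and unwind the capped end of the mRNA, 6 of 10 probes passed toward Myc (60%, all probes 27.1%). Away from it passed 1 probe (10%, all probes 15.6%), and 3 missed the threshold. The median of 0.46 turned to -0.10 on centred channel 2 arrays. Eif4a1, the main helicase of the complex, ranged from 0.40 in 550-A over a median of 1.06 to 1.36 in 579-F. It was on the Myc side in 15 of 15 extracts, at 1.03 ± 0.09 (adjusted p = 6.18e-08). Its close copy Eif4a2 went the other way. Probe 9998 of Eif4a2 ranged from -0.96 in 579-D over a median of -0.43 to 0.32 in 579-F and averaged -0.42 ± 0.11 (adjusted p = 0.00413), with 13 of 15 extracts on the opposite side. Probe 17304 of the same gene did not pass (-0.28 ± 0.19, adjusted p = 0.264) and ran from -1.65 in 561-B to 1.70 in 546-A. The annotation ties that probe to a different sequence record, and which transcript it reads was not tested.

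The scaffold genes Eif4g3 and Eif4g2 both passed. Eif4g3 stood at 0.73 ± 0.12, from 0.03 in 579-F to 1.54 in 546-A, on the Myc side in every extract. Eif4g2, which encodes a scaffold without the cap-binding contact, stood at 0.42 ± 0.09 and at -0.20 on centred channel 2 arrays. Eif4a3, the helicase of the exon junction complex, was at 0.50 ± 0.10 (0.04 to 0.96, 15 of 15 extracts), and the helicase partner Eif4b at 0.50 ± 0.10. Eif4e, the cap-binding protein itself, did not pass: it ranged from -0.33 in 550-A over a median of 0.23 to 0.74 in 579-F, at 0.23 ± 0.10 (adjusted p = 0.0809), with 12 of 15 extracts on the Myc side. Its relatives Eif4e3 (0.64 ± 0.24, adjusted p = 0.0385, from -1.23 in 579-B to 2.83 in 546-A) and Eif4e2 (-0.17 ± 0.25, adjusted p = 0.616) were among the 5 members of widest spread. After centring Eif4e3 no longer passed (0.51, adjusted p = 0.118). The Eif4e2 fit dropped 548-A, which had no value. No probe of Eif4g1 was analysed here.

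The eIF4E-binding proteins hold the cap-binding protein back until mTOR phosphorylates them. Eif4ebp2 ranged from 0.49 in 550-A over a median of 1.06 to 1.32 in 579-F, so that every extract lay on the Myc side. It averaged 0.98 ± 0.09 (adjusted p = 1.38e-07), with 1.29 and 0.49 in the centred orientations. Eif4ebp1 did not pass, at -0.09 ± 0.10 (adjusted p = 0.509), from -0.74 in 567-B over a median of -0.20 to 0.50 in 579-D, and its sign depended on orientation (0.45 centred in channel 1, -0.83 in channel 2). Eif4enif1, a shuttling partner of eIF4E, stood at 0.09 ± 0.11.

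eIF3, the largest initiation factor, holds the 43S complex together. Of its 12 measured subunits 8 passed on the Myc side (66.7%, all probes 27.1%) and 4 did not. The median of 0.51 turned to -0.12 on centred channel 2 arrays. Eif3i ranged from 0.29 in 546-A over a median of 1.16 to 1.68 in 597-B and averaged 1.06 ± 0.11 (adjusted p = 7.83e-07). Eif3b, with which it forms one module of the complex, stood at 0.78 ± 0.11 with 14 of 15 extracts on the Myc side. Eif3d, the subunit that can bind the cap, was at 0.64 ± 0.09 (0.25 to 1.09), and Eif3l at 0.64 ± 0.08 (0.17 to 1.14). These 4 were positive in both centred orientations, at 0.32, 0.24, 0.27 and 0.05 in channel 2. There limma's adjusted p was 0.0607 for Eif3d and 0.746 for Eif3l. Eif3j1 was positive in both as well, at 0.03 in channel 2. Eif3k (0.58), Eif3j1 (0.56), Eif3f (0.47) and Eif3h (0.34) also passed, but Eif3k, Eif3f and Eif3h were at -0.09, -0.15 and -0.21 on centred channel 2 arrays. With both orientations centred, Eif3h no longer passed (0.22, adjusted p = 0.0835). Eif3f was at or above 0.00 in every extract.

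The remaining eIF3 subunits were Eif3a, Eif3c, Eif3e and Eif3m. Eif3a and Eif3c, the scaffold subunits, stood at -0.16 ± 0.10 (adjusted p = 0.22) and 0.04 ± 0.09 (adjusted p = 0.776). Eif3e, a gene known as an insertion site of mouse mammary tumour virus, stood at -0.21 ± 0.09 (adjusted p = 0.056). After centring Eif3e (-0.30, adjusted p = 0.00444) and Eif3a (-0.25, adjusted p = 0.0173) passed on the opposite side, from channel 2 arrays (-0.61 and -0.67), with 0.01 and 0.17 on centred channel 1 arrays. Eif3m stood at 0.23 ± 0.15 with 1 low extract, 546-A at -1.49. None of these 4 subunits has a settled side.

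For eIF2 and its exchange factor eIF2B, 4 of 8 probes passed, each toward Myc (50%, all probes 27.1%), and 4 missed the threshold. The median over the 8 probes was 0.49 and stayed positive (0.11) on centred channel 2 arrays. The eIF2B subunit genes Eif2b1 and Eif2b4 stood at 1.05 ± 0.11 (0.17 in 550-A to 1.70 in 547-A) and 1.00 ± 0.13 (-0.34 in 550-A to 1.75 in 546-A). Eif2b2 stood at 0.84 ± 0.16 with 13 of 15 extracts on the Myc side. Eif2b3 did not pass (-0.07 ± 0.26) and had the widest spread of the members, from -2.32 in 548-A to 2.02 in 579-F. Its probe was dim, meaning that more than 0.5 of its values were log2 ratios of whole numbers no larger than 20, and its mean was -1.20 in channel 1 and 1.42 in channel 2.

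Of the eIF2 subunits themselves, Eif2s2 (beta) stood at -0.22 ± 0.10 (adjusted p = 0.0948) and passed on the opposite side after centring (-0.32, adjusted p = 0.0226), where it was at 0.28 in channel 1 and -0.91 in channel 2. The 2 probes of Eif2s3x (gamma) disagreed. Probe 8407 ranged from 0.29 in 550-A over a median of 0.91 to 2.22 in 579-E, at 0.98 ± 0.13 (adjusted p = 9.45e-06), while probe 1374 ranged from -0.55 to 0.69, at 0.14 ± 0.11 (adjusted p = 0.336). Eif2s3y, the copy of the gamma gene on the Y chromosome, stood at 0.01 ± 0.09 (-0.53 to 0.51). Near-identical copies can share signal on an array, and which copy each probe read was not tested. Eif2s1 and Eif2b5 were not analysed here.

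The 4 eIF2 alpha kinases, which slow initiation under heme loss (Eif2ak1), double-stranded RNA (Eif2ak2), stress of the endoplasmic reticulum (Eif2ak3) and amino acid shortage (Eif2ak4), had 1 of 5 probes past the threshold on each side (20%, where 27.1% and 15.6% of all probes were). Eif2ak1 ranged from -0.80 in 595-A over a median of -0.34 to 0.17 in 561-B, at -0.33 ± 0.09 (adjusted p = 0.0056), with 13 of 15 extracts on the opposite side. Eif2ak3 stood at 0.39 ± 0.11 (adjusted p = 0.0088), at -0.02 in channel 1 and 0.80 in channel 2 as deposited and at 0.24 and 0.35 after centring. Eif2ak4 (0.07 ± 0.11) and the probes of Eif2ak2 (0.15 ± 0.11 and 0.05 ± 0.15) did not pass. Eif2ak4 was at -0.42 in channel 1 and 0.57 in channel 2, and Eif2ak2 probe 11411 at -0.25 and 0.54. With channel 2 arrays alone both passed as deposited (adjusted p = 0.00539 and 0.00664). On centred channel 2 arrays they did not pass, at 0.12 (adjusted p = 0.354) and 0.1 (adjusted p = 0.665).

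Of 7 probes for factors of start codon choice and subunit joining, 2 passed toward Myc and 5 did not pass. The share toward Myc (28.6%) was near that of all probes (27.1%). The median of 0.19 turned to -0.15 on centred channel 2 arrays. Eif2d, which acts in initiation without eIF2 and in recycling, stood at 0.41 ± 0.08 (adjusted p = 0.000541), from -0.17 in 550-A to 0.62 in 597-B. Eif6, which keeps the large subunit from joining too early, stood at 0.21 ± 0.08 (adjusted p = 0.0446), and no longer passed after centring (0.12, adjusted p = 0.242). Eif5, the GTPase activator of eIF2, stood at -0.05 ± 0.13, on a probe tied to a different sequence record as above. Eif1a (0.14), its X-linked copy Eif1ax (0.19), Eif1b (0.06) and Eif1ad (0.32, without 1 extract that had no value) ranged between adjusted p = 0.0848 and 0.688.

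Among the elongation factors 6 of 12 probes passed, each toward Myc (50%, all probes 27.1%), and 6 missed the threshold. The median over the 12 probes was 0.32 and turned to -0.08 on centred channel 2 arrays. Of 3 probes of Eef2, the translocase, probes 15649 and 4249 passed at 0.62 ± 0.10 (adjusted p = 9.16e-05) and 0.57 ± 0.10 (adjusted p = 0.000272), each with 14 of 15 extracts on the Myc side, and probe 449 missed the threshold at 0.30 ± 0.12 (adjusted p = 0.0515). Eef1b2, which reloads eEF1A with GTP, stood at 0.62 ± 0.12 (-0.31 in 546-A to 1.15 in 579-F), and Eef1g, its structural partner, at 0.34 ± 0.10. Eef1g was at 0.61 in channel 1 and 0.07 in channel 2, and at 0.87 and -0.38 after centring. Eef1d, the third subunit of that exchange complex, did not pass on either probe (0.43 ± 0.19 and 0.26 ± 0.11). Its probe 11087 had opposite signs by orientation, -0.55 in channel 1 and 1.42 in channel 2 (adjusted p = 0.000414 in channel 2 alone).

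Eef1a1, the main carrier of aminoacyl-tRNA, did not pass on either probe. Probe 19424 ranged from -0.96 in 550-A over a median of 0.21 to 0.83 in 579-E (0.24 ± 0.12, adjusted p = 0.132), and probe 7999 stood at 0.12 ± 0.11 (adjusted p = 0.406). Eef1a2, the form of muscle and neurons, passed on probe 4274 (0.30 ± 0.11, adjusted p = 0.0309; 0.20, adjusted p = 0.0962 after centring) but not on the dim probe 16429 (-0.07 ± 0.22), for which the fit dropped 1 extract. Eef1e1, a component of the tRNA synthetase complex despite its name, was on the Myc side in every extract at 0.74 ± 0.11 (0.10 in 550-A to 1.43 in 597-B), with 1.35 and -0.06 in the centred orientations. The probes named for pseudogenes, Eef1a1-ps1 (0.27 ± 0.10) and Eif2s3x-ps1 (0.83 ± 0.12), both passed, and reads of the parent genes by these probes were not tested. Eef1a1-ps1 no longer passed after centring (0.17, adjusted p = 0.165) and was at -0.15 on channel 2 arrays as deposited.

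Enzymes that modify the elongation factors spread widely. Past the threshold were 3 of 5 toward Myc (60%, all probes 27.1%) and 1 away from it (20%, all probes 15.6%). The median of 0.67 turned to -0.24 on centred channel 2 arrays. Eef1akmt2, a lysine methyltransferase of eEF1A, was the member farthest on the opposite side. It ranged from -2.37 in 579-D over a median of -1.20 to 0.00 in 550-A, at -1.19 ± 0.17 (adjusted p = 2.07e-05), and was negative in both centred orientations (-1.05 and -1.52). Eef1akmt1 (0.96 ± 0.17) and Eef1aknmt (0.85 ± 0.20), which methylate other residues of eEF1A, each passed with a difference between orientations: 2.03 in channel 1 and 0.20 in channel 2 for the first, 0.06 and 1.65 for the second. Eef2kmt, the eEF2 methyltransferase, stood at 0.67 ± 0.21 with 14 of 15 extracts on the Myc side, and Eef2k, the kinase that stops eEF2, at -0.04 ± 0.12 (adjusted p = 0.799).

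Since both genes of a pair are read on the same arrays, the difference between their ratios does not depend on the level of the array where both were measured. The 7 pairs of related genes were chosen after the values above were seen, so the differences are a description. Probes of 1 gene were averaged first. Eif4a1 exceeded Eif4a2 in 15 of 15 extracts, by 1.38 ± 0.48 (SD), from 0.12 to 2.30, and by 1.30 and 1.46 in the 2 orientations. That mean includes Eif4a2 probe 17304, whose transcript is in doubt: with probe 9998 alone the difference was 1.45 ± 0.35 (0.75 to 1.92, 15 of 15 extracts), and with probe 17304 alone 1.31 ± 0.78 (-0.84 in 546-A to 2.68, 14 of 15). Eif4ebp2 exceeded Eif4ebp1 in 15 of 15, by 1.07 ± 0.47 (0.84 and 1.31 by orientation). Eif2s3x exceeded Eif2s3y in 15 of 15, by 0.55 ± 0.25, on the mean of probes that disagreed. Probe 1374 of Eif2s3x alone lay below Eif2s3y in 546-A, 548-A, 550-A and 579-B and above it in the other extracts. In the other pairs the order varied between extracts: Eif4g2 was above Eif4g3 in 4 of 15 (mean difference -0.31), Eif4e above Eif4e3 in 5 (-0.41), Eif1a above Eif1ax in 6 (-0.05) and Eef1a1 above Eef1a2 in 9 (0.07). The Eef1a2 mean takes in the dim probe 16429 (-0.07 over extracts). Probe 4274 alone stood at 0.30, above the Eef1a1 mean of 0.18, so the order of that pair depends on the probe. All pair values are differences of ratios to the reference and say nothing of which gene has the more RNA.

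**Figure D3:**
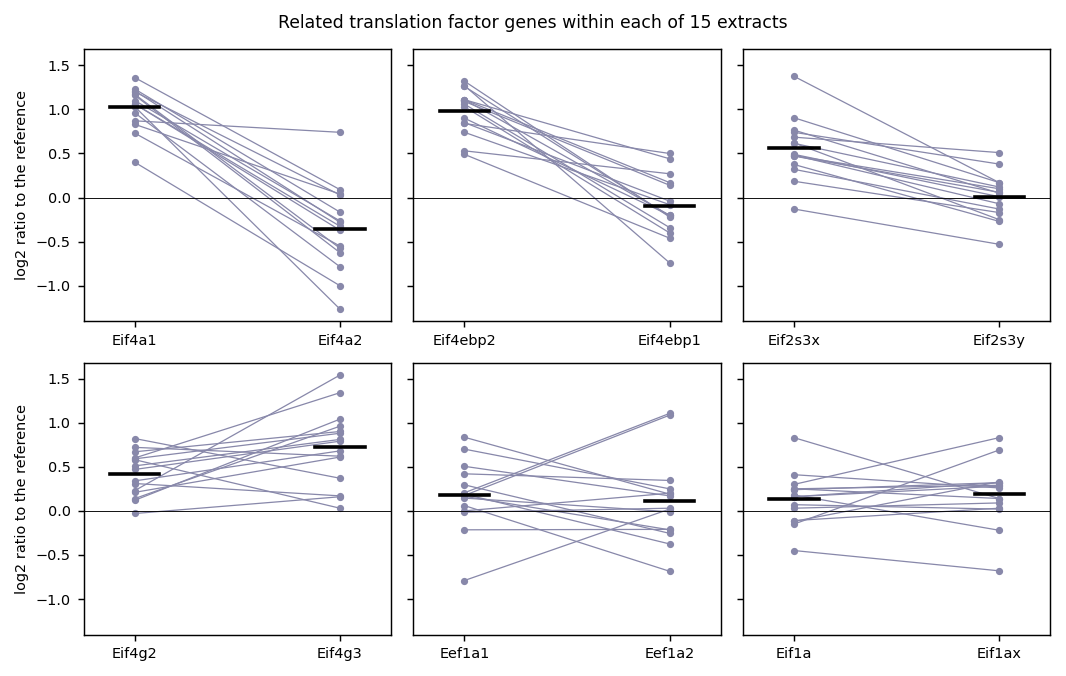
Log2 ratio to the reference of 6 pairs of related translation factor genes in each of 15 extracts (points joined by a line per extract, black bars for the means; probes of 1 gene averaged). The lines fall in all 15 extracts for Eif4a1 and Eif4a2, Eif4ebp2 and Eif4ebp1, and Eif2s3x and Eif2s3y, and cross in the other pairs. Eif2s3x averages probes that disagreed (8407 at 0.98, 1374 at 0.14), and probe 1374 alone is not above Eif2s3y in every extract.

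Other parts of the translation machinery were counted over lists of known genes, to be read against the 27.1% of all probes past the threshold on the Myc side and the 15.6% opposite. Of 5 release and recycling genes 4 lay on the Myc side, at a median of 0.47 that turned to -0.07 on centred channel 2 arrays, among them Gspt1 (0.60 ± 0.09), which encodes a termination factor; Abce1, the recycling ATPase, did not pass (0.14). Of 11 probes of poly(A)-binding proteins and cap regulators 8 lay on the Myc side, with a median of 0.72 (-0.10 on centred channel 2 arrays), led by Larp1 (1.00 ± 0.11), a regulator of mRNAs for ribosomal proteins, and including Pabpc1 (0.80 ± 0.11) and Pabpc4 (0.72 ± 0.12). The kinase gene Mknk1, whose product phosphorylates eIF4E, lay on the opposite side at -0.55 ± 0.14. Of 20 probes of cytosolic tRNA synthetases 7 passed on the Myc side, with Farsa (1.16 ± 0.17) in front, and 2 opposite, Aars (-0.67 ± 0.13) and Cars (-0.32 ± 0.12), which as shares (35% and 10%) lie near those of all probes (median 0.19, turning to -0.22).

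In the mTOR branch, which acts on eIF4E through its binding proteins, 4 of 11 probes passed, each toward Myc (36.4%, where 27.1% of all probes did; 2 of the 4 are probes of 1 gene; median 0.11, turning to -0.08 on centred channel 2 arrays). Both probes of Deptor, an inhibitor of mTOR, were the largest of them at 1.90 ± 0.29 and 1.83 ± 0.28, and Akt1 was nearest the median (0.11 ± 0.11). Of 5 mitochondrial translation factor probes 3 lay on the Myc side (median 0.32, turning to -0.11), with Tsfm at 0.66 ± 0.11. Of 11 target genes of the integrated stress response, which follows phosphorylation of eIF2, 1 passed toward Myc and 3 away from it (median -0.09, turning to 0.45 on centred channel 1 arrays). Ddit3, which encodes the transcription factor CHOP, stood at -2.17 ± 0.17 with 0 of 15 extracts on the Myc side. Ppp1r15a, which returns eIF2 to its unphosphorylated form, stood at -0.67 ± 0.12. The gene that passed toward Myc was Ppp1r15b, at 0.44 ± 0.10 with 12 of 15 extracts on the Myc side. Asns was nearest the median at -0.09 ± 0.21.

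Markers of the cells that a mammary carcinoma can hold also differed from the reference. The tissue label was checked on luminal epithelial genes, of which 8 of 8 lay on the Myc side (median 3.17), with Epcam at 2.90 ± 0.11 and Krt8 at 2.25 ± 0.15. So did 4 of 4 endothelial, 4 of 5 macrophage, 2 of 2 erythroid, 1 of 3 adipocyte and 1 of 3 basal probes, while 5 of 7 fibroblast, 3 of 4 lymphocyte and 1 of 3 basal probes lay on the opposite side and 0 of 3 skeletal muscle probes passed. As ratios, these values give no level in the extract alone. Their part in the differences of the translation factors was not tested.

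Between the 15 extracts the translation factors varied less than the array as a whole. The median SD over extracts was 0.36, where that of all probes was 0.68. An SD above 0.5 was found for 15 members (23.1%) and for 69.9% of all probes. Low spread was not particular to them: the median SD was 0.31 for release and recycling genes, 0.37 for cytosolic tRNA synthetases and 0.39 for poly(A)-binding proteins and cap regulators. It was 0.46 for mitochondrial factors, 0.53 for the mTOR branch and 0.6 for stress response targets. The median member also had a smaller share of log2 ratios of small whole numbers than the median probe. The part of such values in the spread was not tested. By limma's F-test, which sets extracts against the noise of their repeat arrays, 0 of 62 members tested differed between extracts (all probes 6.73%, or 867 of 12888), with 6 at an unadjusted p under 0.05 (all probes 2831) and a lowest adjusted p of 0.106. With probes that had values on all 30 arrays alone, 2 members passed: Eif2s3x probe 1374 (adjusted p = 0.042), from -0.55 in 550-A to 0.69 in 579-F, and Eef1d probe 19474 (adjusted p = 0.0356), from -0.74 in 550-A to 0.80 in 579-F. The share of all probes that passed under this filter was not counted. The widest SDs, given as a description, were those of Eif2b3 (1.07), Eif4e2 (1.00), Eif4e3 (0.98), the dim Eef1a2 probe (0.88) and Eef2kmt (0.87). A probe that misses this test is not shown to be the same in every extract.

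Extract 550-A stood below the rest. The median member there was -0.24 (all probes -0.19), with 22 of 65 on the Myc side, and 548-A followed at -0.02 (all probes -0.25). The other extracts had medians from 0.23 in 546-A to 0.60 in 579-F. Of the 65 members 31 (47.7%) were lowest in 550-A, where 17.6% of all probes were. Centring lowered both shares, to 18.5% (12 members) and 9.33%. The excess of the median member over the median probe ran from -0.05 in 550-A to 0.49 in 579-D. Without 548-A and 550-A, 39 members passed on the Myc side and 3 opposite. The share of all probes in that setting was not counted, so nothing is drawn from the change.

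**Figure D4:**
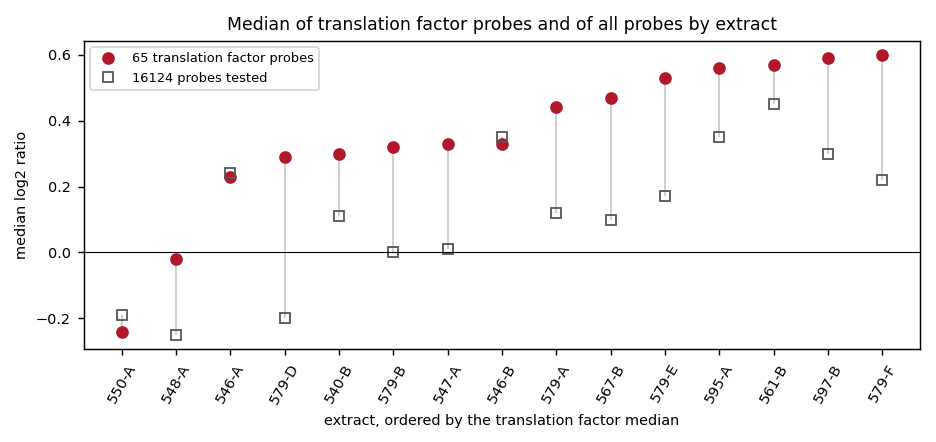
Median log2 ratio to the reference in each extract over the 65 translation factor probes (red points) and over all 16124 probes tested (open squares), joined by a line and ordered by the red points. Extract 550-A is lowest for the translation factors (-0.24) and 579-F highest (0.60); in 546-A, 546-B and 550-A the red point lies at or below the square.

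Number 579 stood on 5 extracts, which were set against the 10 of other numbers. By limma 0 of 65 members passed (0 of 16124 probes; 0%), with 1 member and 600 probes at an unadjusted p under 0.05 and every member's adjusted p at 1. The member was Eif2s2, at 0.20, 0.11, -0.29, 0.29 and 0.09 in 579-A, B, D, E and F, a mean of 0.08 against -0.37 in the other numbers. Its groups overlapped, since 547-A reached 0.10. The median member differed by 0.12 and the median probe by -0.07.

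Extracts 550-A and 561-B, labelled for tumour progression, were set against the 12 of the epithelial to mesenchymal work. Again 0 of 65 members passed by limma (0% of 16123 probes), with 3 members and 672 probes at an unadjusted p under 0.05, a lowest adjusted p of 1 and a median difference of -0.21 (all probes 0.04). The 3 were Eef1a1 probe 19424 (-0.85 ± 0.32, SE), Eif4a2 probe 17304 (-1.30 ± 0.51) and Eef1d probe 19474 (-0.75 ± 0.30). The progression extracts did not stand together in the first and the last of these. Eef1a1 was at -0.96 in 550-A and 0.00 in 561-B, and the transition extracts reached down to -0.15. Eef1d was at -0.74 in 550-A and -0.04 in 561-B, and the transition extracts reached down to -0.24. With 2 extracts in one group the comparison has little precision.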

How the data were processed

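The authors deposited log2 ratios of the channels of 30 arrays. The scale was taken from the values, and the sources used here name no scanner, background correction or normalization. The value 16.61 (8839 cells) and 95268 blank cells were treated as missing. Of the remaining values 33.6% matched, to 3 decimals, a log2 ratio of whole numbers no larger than 20. The sign was turned on arrays with the extract in channel 2, the 2 arrays of an extract were averaged, and no centring was applied. Symbols came from the platform annotation, and all 65 member probes were found in RefSeq by gene identifier.

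The 16124 probes with values on at least 24 arrays were fitted with limma 3.58.1 in R 4.3.3 (lmFit, eBayes, Benjamini-Hochberg over all probes, threshold 0.05). The 15 extract means were tested against 0, which leaves out the spread of the reference, a single RNA. Groups of extracts were compared on the same means. The F-test between extracts used single arrays with a term for orientation, over the 12888 probes that could be fitted. The scripts were tested on simulated data. Genes named are members that passed on one side in every extract, those on the opposite side, the widest 5 by SD and a fixed list of known factors; of the other lists, the largest and the one nearest the median. A few were added after their values were seen: Eif2b2, Eif2b4, Eif3b, Eif4b, the subunits and enzymes that complete a group, and some examples from the other lists. The members and lists were chosen with earlier results of these data known.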

Additional observations from a re-analysis of the deposited data

Results flagged for a closer look

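Of 130 sets of extracts tested for a value far from its neighbours, by Dixon's test within number 579 and within the other numbers, 7 stood out; chance gives about 1 in 20. Within number 579, Eif2s3x-ps1 was at 0.00 in 579-D and between 1.10 and 1.34 in the others, Eif3j1 at 1.08 in 579-E (others 0.35 to 0.49), and the dim Eif2b3 probe at 2.02 in 579-F (others -0.60 to 0.12). Among the other numbers, 550-A was far below the rest for Eif2d, at -0.17 (others 0.21 to 0.62), and for Eef1a1 probe 19424, at -0.96 (others -0.15 to 0.56). In 546-A, Eif4a2 probe 17304 stood at 1.70 (others -1.65 to 0.03) and Eef2kmt at -2.27 on 1 array (others 0.14 to 1.19). No cause was tested.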

How the results depend on the processing

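The count on the Myc side, 34, kept within 28 to 44 under 12 of 13 alternatives and was 8 on centred channel 2 arrays. Of these alternatives, shares of all probes were counted for the centred settings alone. The count on the opposite side, 3, was 6 after centring, 5 on channel 2 arrays and 17 on centred channel 2 arrays. The count between extracts, 0, was 2 with values on all 30 arrays. The counts for number 579 and for progression stayed at 0 under every alternative, left-out extracts included. Averaging extracts of 1 number gave 28 and 3, and the number as a random block (correlation 0.0137) gave 34 and 3. No paired analysis was made between groups of extracts, because no extract number occurs in both groups of a comparison. The settings with 1 centred orientation, with a value required in every extract, and without 548-A and 550-A were chosen after seeing the data.

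Among members that passed as deposited or under the alternative, these changed sign, and the cause was not tested. On centred channel 2 arrays Eif2s3x probe 1374 was at -0.48, Eif3c -0.42, Eif3f -0.15, Eif6 -0.15, Eif4g2 -0.20, Eif3k -0.09, Eif2s3y -0.40, Eef1a1-ps1 -0.59, Eif3h -0.21, Eif2d -0.02, Eif4b -0.01, Eef1g -0.38, Eif1ax -0.47, Eif2ak2 probe 22445 -0.67, Eef1e1 -0.06 and Eef1akmt1 -0.24. On channel 2 arrays as deposited Eif2b3 was at 1.42 and Eef1a1-ps1 at -0.15. On channel 1 arrays as deposited Eif5 was at 0.30 and Eif2ak3 at -0.02. On centred channel 1 arrays Eif5 was at 0.55, Eif4e2 at 0.98 and Eif4ebp1 at 0.45. Members that passed in neither setting also changed sign, 11 on channel 1 arrays, 8 on centred channel 1 arrays, 4 on channel 2 arrays, 11 on centred channel 2 arrays and 5 after centring. Thin extracts limit precision, since in 546-A 13 members rested on 1 array.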
